A study of Mus musculus with 12 samples.

Results

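Cycling SOX2+ tumour cells were compared with the SOX2- bulk of the same kind of tumour by the open chromatin regions listed for each. The comparison used both libraries titled SOX2+/MKI67+ and all 4 titled SOX2-, which makes 6 of the 12 libraries in the series. Every library came from untreated primary mouse medulloblastoma of the sonic hedgehog subgroup, a tumour of the cerebellum, taken at endpoint from Ptch1+/- mice, so the controls carry that genotype too. SOX2- cells were those without eGFP signal in a sort that separated SOX2+ from SOX2- cells. The SOX2+/MKI67+ cells are described as the RFP-positive fraction of SOX2+ cells, and the RFP-negative fraction as the source of the 2 SOX2+/MKI67- libraries. The eGFP sort also gave 4 SOX2+ libraries. The alleles that carry the reporters, the age of the mice and any pooling of animals are not given in the sources used here, and peak names mention only RFP in replicate 1 of the MKI67 sort but GFP and RFP in replicate 2. Whether replicate 1 was also gated on GFP is not settled here, so values of the MKI67 sort are given per replicate. Because the groups came from different sorts, group and sort cannot be told apart, and the values of the SOX2+ libraries (same sort as SOX2-) and of the SOX2+/MKI67- libraries (same sort as SOX2+/MKI67+) are given beside the results.

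ATAC-seq cuts and tags accessible DNA with a transposase, so a peak marks a stretch of open chromatin, often a promoter or an enhancer. In the developing cerebellum, granule neuron progenitors depend on the transcription factor ATOH1 and divide in response to sonic hedgehog, whose receptor PTCH1 restrains the pathway. SOX2 is a transcription factor of neural stem and progenitor cells, and MKI67 is a nuclear protein of dividing cells. In medulloblastoma of this subgroup, SOX2+ cells are known as a small, stem-like fraction, most of the tumour resembling cycling granule progenitors.

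The deposited lists held 18738 and 24694 peaks in the 2 SOX2+/MKI67+ libraries and 7009, 26206, 12660 and 21682 in SOX2- replicates 1 to 4. SOX2- replicate 1 was the shortest of all 12 lists. A longer list reaches weaker peaks, so every result was computed on the full lists and again with each list cut to its 7009 strongest peaks by the deposited −log10 q, here called equal peak numbers. The strength of a peak within its list is given as a rank percentile, 100 being the strongest. Nothing in the labels says that replicates came from separate animals, so their spread may be technical.

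The libraries also fell into 2 sets that cut across the sorts, a division seen in the data and not named in the labels. Of the merged regions, 279 were in replicate 4 of SOX2- and of SOX2+ and in all 4 libraries of the MKI67 sort, and in none of replicates 1 to 3 of SOX2- and SOX2+, and 221 of them were gene ends, those of Pcna, Rpl13a and Cdkn2d among them. The reverse membership had 4 regions, and the cut to equal length gave 192 and 5. What set these libraries apart was not tested. SOX2- replicate 4 is therefore the bulk library of the same set as SOX2+/MKI67+, and values against it alone are given beside the results.

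The markers of the sort fitted the labels at Sox2. Its locus held 3 and 5 peaks in the SOX2+/MKI67+ libraries and 0, 1, 1 and 1 in SOX2-, so the groups did not overlap. The SOX2+ libraries held 5, 2, 6 and 4 and the SOX2+/MKI67- libraries 3 and 6. In the fit over all genes the difference was 1.25 on the log2(peaks + 1) scale (SE 0.32) with an adjusted p of 0.176, which did not pass 0.05. Atoh1, which defines granule progenitors, had 4 and 2 peaks in SOX2+/MKI67+ and 2, 4, 4 and 3 in SOX2-. The 2 SOX2+/MKI67- libraries listed only 1 and 0 peaks there, and the groups of the main comparison overlapped (log2 difference −0.46, SE 0.51, adjusted p 0.808). Mki67 had 2 and 5 peaks in SOX2+/MKI67+ and 2, 5, 2 and 5 in SOX2- (log2 difference −0.36, adjusted p 0.737), and an open Mki67 locus does not measure its expression. Sets of markers of other cells differed in coverage. Per 10000 peaks, lymphocyte genes reached at most 0.405 in either group, and microglia and macrophage genes 1.60 and 2.83 in SOX2+/MKI67+ against 0.00 to 1.53 in SOX2-. Endothelial and mural genes had 3.74 and 6.07 against 0.00 to 5.72, fibroblast genes 4.27 and 5.67 against 0.00 to 6.11, and ependymal genes 6.94 and 9.72 against 3.16 to 8.01. Oligodendrocyte-lineage genes (12.8 and 18.2 against 4.28 to 7.84) and astrocyte genes (14.9 and 16.6 against 4.28 to 10.1) were higher in SOX2+/MKI67+ without overlap. Whether normal glia were among the sorted cells was not tested. The microglia and macrophage values did not overlap, and their part in the results was not tested.

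Cycling SOX2+ cells kept 2210 regions that no SOX2- library listed, among 44242 regions made by merging the overlapping peaks of all 12 libraries (5.0%). In the other direction, 486 regions were in at least 3 SOX2- libraries and in neither SOX2+/MKI67+ library (1.10%), and 6214 regions were in all 6. With equal lists the order of the exclusive classes turned over, with 419 regions on the cycling side (3.02% of 13891 merged regions) and 506 on the bulk side (3.64%). Leaving out the shortest list and cutting the others to 12660 peaks gave 1243 and 616. The classes also changed when 1 library was left out. Leaving out 1 SOX2+/MKI67+ library loosens both classes by construction, since only the remaining 1 is asked for. Without SOX2+/MKI67+ replicate 1 the cycling class grew to 6592, and without SOX2+/MKI67+ replicate 2 the bulk class grew to 1100. Without SOX2- replicate 2, 3 or 4, which leaves 3 libraries that must all hold a region, the bulk class shrank to 38, 72 and 49. Without SOX2- replicate 1, 9500 regions were in all remaining libraries. Against SOX2- replicate 4 alone, 3454 regions were in both SOX2+/MKI67+ libraries and not in the bulk, and 5338 in the bulk and in neither SOX2+/MKI67+ library (980 and 1386 with equal lists). The size of neither class can therefore be read without the list lengths, while the regions themselves can be followed in libraries that played no part in choosing them.

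**Figure D1:**
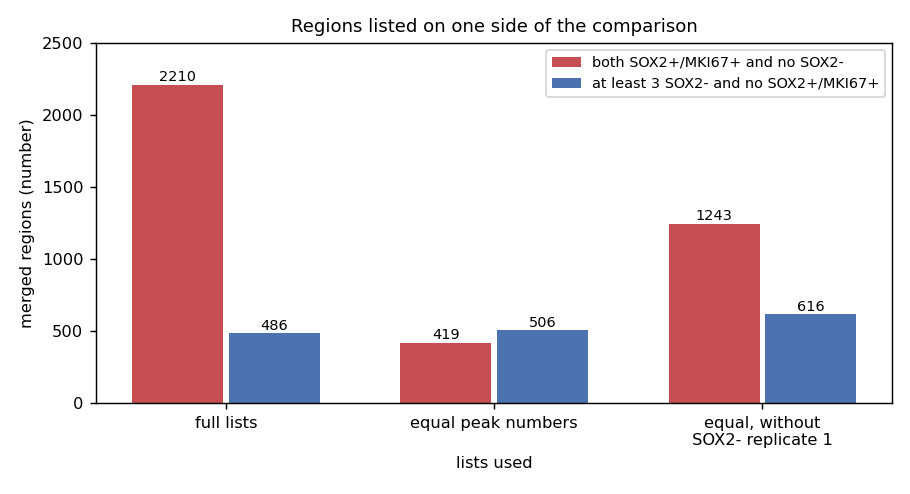
Number of merged regions listed by both SOX2+/MKI67+ and no SOX2- library (red) and by at least 3 SOX2- and no SOX2+/MKI67+ library (blue), for full lists, lists of equal length and lists of equal length without SOX2- replicate 1. The red bar falls from 2210 to 419 with equal lists, below the blue bar at 506, and stands at 1243 against 616 without the shortest list.

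Most regions kept by cycling cells and not listed by the bulk were also listed in other SOX2+ libraries. Of the 2210, 2067 were in at least 1 of the 4 SOX2+ libraries, which share the sort with SOX2-, and 1225 (55.4%) were in 3 or 4. Both SOX2+/MKI67- libraries listed 1495 of them (67.6%). Among all regions in both SOX2+/MKI67+ libraries, 74.5% were in 3 or 4 SOX2+ and 76.7% in both SOX2+/MKI67- libraries, and among all merged regions 30.4% and 32.6%. Only 94 were in no other library, and 14 were in all 4 libraries of the MKI67 sort and none of the 8 of the eGFP sort. Few of the 2210 lay at gene ends: 11.3% were within 1 kb of one, 49.3% inside a gene and 39.4% between genes. Regions in all 6 libraries had 78.6%, 14.4% and 7.0%, and all merged regions 27.3%, 38.5% and 34.2%. The low share was not particular to this class. Regions in at least 3 SOX2- and no SOX2+/MKI67+ library had 8.23% at gene ends on full lists. With equal lists the gene-end shares were 24.3% in the cycling class, 37.5% in that bulk class and 55.3% of all merged regions. On full lists the median rank percentile of the 2210 was 32.6 and 47.1 in the 2 SOX2+/MKI67+ lists. Regions in all 6 libraries ranked at 80.3 and 85.3 there, so much of the class of 2210 sat in the weaker part of the lists.

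The strongest regions of the class lay at genes of varied function, and all 6 named by rank were in 4 of 4 SOX2+ and 2 of 2 SOX2+/MKI67- libraries. Ranks this high keep them in both SOX2+/MKI67+ lists at equal peak numbers, and the cut cannot add them to an SOX2- list. Inside genes, they were at Acss1, a mitochondrial acetyl-CoA synthetase (mm10 chr2:150643830-150644559, mean rank percentile 95.6), at Tafa5, a secreted chemokine-like protein (chr15:87715205-87715708, 95.3), at Kcnj10, the potassium channel of glial cells (chr1:172349851-172350497, 94.5), and at Ctnnd2, a catenin of cell junctions (chr15:30693597-30694199, 94.3). Between genes, the nearest were the chemokine gene Ccl25 (chr8:4369796-4370500, 93.5), 10.1 kb away, and the signalling adaptor Traf3ip2 (chr10:39672498-39673133, 93.0), 17.5 kb away. By number, Xylt1, whose enzyme starts proteoglycan sugar chains, held 7 such regions. The Rac activator Prex1, Ptprn2 and Zfp648 held 5 each, and Dscam, Myrip, Nckap5 and Ntrk2 4 each. With equal lists, Xylt1, Prex1 and Ptprn2 had 2 such regions each, Zfp648, Dscam and Nckap5 1, and Myrip and Ntrk2 0.

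Among the stem and progenitor genes, 2 regions at Sox2 separated the groups at equal peak numbers. A region 70.2 kb from Sox2 (chr3:34722302-34723038) was in both SOX2+/MKI67+ libraries at rank percentiles of 74.8 and 78.8, in no SOX2- library, and in all 4 SOX2+ and both SOX2+/MKI67- libraries. Both SOX2+/MKI67+ lists kept it at equal peak numbers. The gene-end region of Sox2 (chr3:34649337-34650204) was in both SOX2+/MKI67+ libraries at 79.7 and 71.8 but also in 3 SOX2- libraries, at 27.5, 19.6 and 59.2. After the cut to equal length it stayed in both SOX2+/MKI67+ lists and in no SOX2- list. Fabp7, whose lipid-binding protein is typical of radial glia, had its gene-end region (chr10:57784340-57785003) in both SOX2+/MKI67+ libraries at 48.7 and 73.7 and in none of SOX2-. Gene ends of Sox21 (chr14:118236730-118237305) and of Hes5, a Notch-driven repressor (chr4:154960470-154961000), had the same membership, and all 3 were in 4 of 4 SOX2+ and 2 of 2 SOX2+/MKI67- libraries. With equal lists the Fabp7 gene end was in 1 SOX2+/MKI67+ list, those of Sox21 and Hes5 in 0, and none of the 3 in an SOX2- list.

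On full lists, oligodendrocyte-lineage and astrocyte genes held many exclusive regions relative to their coverage. Of 71 merged regions at the 15 oligodendrocyte-lineage genes, 12 (16.9%) were exclusive to cycling cells, and of 68 at the 16 astrocyte and Bergmann glia genes 15 (22.1%), against 4.98% over all genes. Among other lists, Wnt (11.9%), Notch (11.5%), immediate early (10.9%), BMP (8.42%) and stem genes (7.87%) also stood above that share. Hedgehog (1.12%) and cell cycle genes (1.41%) stood below it. The oligodendrocyte and astrocyte counts were 2 and 1 at equal peak numbers, where stem and progenitor genes had 4. Over all genes the count of exclusive regions went from 1986 on full lists to 381. Shares of merged regions per list were not computed for equal lists. Olig2, which drives oligodendrocyte precursors, had such a region 4.99 kb away (chr16:91233286-91234048) at rank percentiles of 71.2 and 80.6, and both lists kept it at equal peak numbers. Another lay 33.8 kb away (chr16:91191235-91192217), and 4 more lay nearest to its neighbour Olig1 (between chr16:91262521-91263255 and chr16:91314153-91314546). Nkx2-2, a factor of ventral progenitors and oligodendrocytes, had 2 inside the gene (chr2:147180625-147181292 and chr2:147193644-147194409). The neurotrophin receptor gene Ntrk2 had 4, the glutamate transporter gene Slc1a3 3 and the folate enzyme gene Aldh1l1 2. In the Notch pathway, a region inside the receptor gene Notch1 (chr2:26487176-26487877) was in both SOX2+/MKI67+ libraries at 77.6 and 80.8, and both kept it at equal peak numbers. The Notch ligand gene Dll1 had its gene end (chr17:15375752-15376477) in the class. Granule-progenitor and neuronal-differentiation genes held 3 exclusive regions each, of 101 and 134 merged regions (2.97% and 2.24%).

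Cycling SOX2+ cells held most of the open regions that the SOX2- libraries shared. A consensus of 11080 regions was in at least 3 SOX2- libraries, and 9763 of them (88.1%) were in both SOX2+/MKI67+ libraries, 831 in 1 and 486 in neither. Equal lists gave a consensus of 5736 and a share of 77.5%. SOX2- replicate 4 listed 11045 of the 11080, so the consensus is nearly all within its list. Of all 21216 regions of that library, 60.1% were in both SOX2+/MKI67+ libraries (66.7% of 6995 with equal lists). Single libraries listed 90.1% and 93.7% of the consensus in SOX2+/MKI67+, 82.6% and 81.0% in SOX2+/MKI67-, and 82.3%, 65.0%, 90.3% and 89.0% in SOX2+. Cut to equal length, the 2 SOX2+/MKI67+ libraries held 83.6% and 85.1%, above the 77.4% and 79.3% of SOX2+/MKI67- and the 80.5% to 83.4% of SOX2+, with no overlap. An exact permutation test over the 6 assignments of 2 against 2 libraries cannot give a two-sided p below 0.333, the value found for SOX2+/MKI67-, and against the 4 SOX2+ libraries at equal peak numbers the exact p was 0.133.

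**Figure D2:**
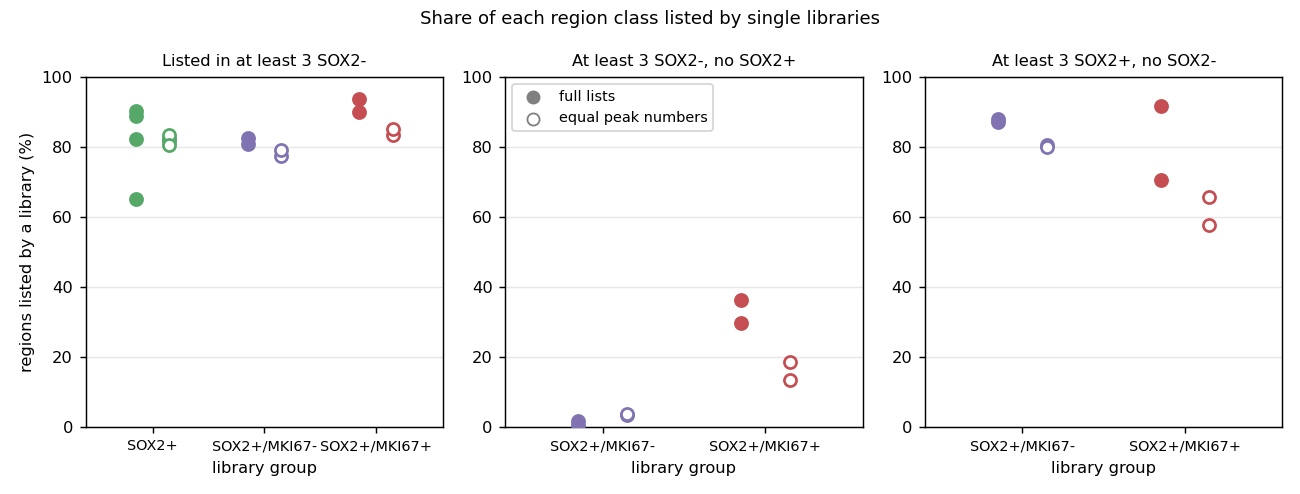
Percentage of 3 classes of merged regions listed by single libraries, as filled points for full lists and open points for equal peak numbers. In the middle panel the SOX2+/MKI67+ libraries stand at 29.7% and 36.2% (full lists), the SOX2+/MKI67- libraries at 1.62% and 0.441%.

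What was held differed by position. Of consensus regions at gene ends, 95.7% were in both SOX2+/MKI67+ libraries, of those inside genes 78.1%, and of those between genes 68.0%. Equal peak numbers gave 83.6%, 65.0% and 41.9%, in the same order. On full lists every SOX2+, SOX2+/MKI67- and SOX2+/MKI67+ library showed that order, so it is not particular to cycling cells. The SOX2- libraries define the consensus and are not counted here. SOX2+ replicate 1 stood at 95.2%, 66.0% and 47.6%, and the SOX2+/MKI67- libraries at 94.7%, 66.1% and 51.2% and at 94.3%, 64.2% and 45.1%. The SOX2+/MKI67+ libraries stood at 96.1%, 81.6% and 75.02% and at 99.1%, 87.3% and 78.1%. Gene ends (within 1 kb) took up 49.2% and 42.2% of all peaks in SOX2+/MKI67+ and 74.9%, 37.3%, 61.8% and 43.3% in SOX2- replicates 1 to 4. These ranges overlapped (mean difference −8.63 percentage points, exact permutation test over 15 assignments, two-sided p = 0.600), and at equal peak numbers the mean difference was 1.34 points. Against SOX2- replicate 4 alone it was 2.39 points on full lists.

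**Figure D3:**
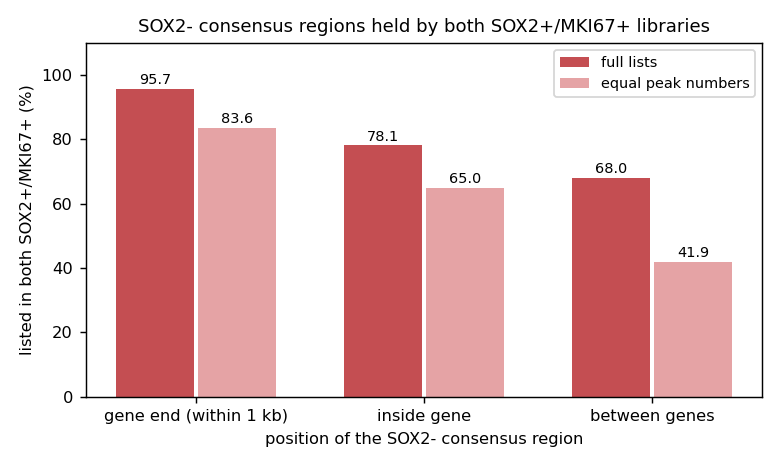
Percentage of SOX2- consensus regions listed in both SOX2+/MKI67+ libraries by the position of the region, for full lists (dark) and equal peak numbers (light). Shares go down from gene ends (95.7% and 83.6%) to regions between genes (68.0% and 41.9%).

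Regions that marked the bulk against SOX2+ cells were partly open in the cycling fraction and almost never in the non-cycling one. Of 680 regions in at least 3 SOX2- and in no SOX2+ library, the SOX2+/MKI67+ libraries listed 202 (29.7%) and 246 (36.2%), and the SOX2+/MKI67- libraries 11 (1.62%) and 3 (0.441%). With equal lists the shares of 394 such regions were 18.5% and 13.5% against 3.30% and 3.55%. The SOX2+/MKI67- lists held 19229 and 17615 peaks, against 18738 and 24694. The shares did not overlap, and with 2 libraries on each side the exact permutation p was 0.333, the smallest possible. The share of 36.2% is that of replicate 2, whose peak names give GFP and RFP. The part of the gate of replicate 1 was not tested. SOX2- replicate 4 listed 679 of the 680. Within its set of libraries, 7138 regions were in SOX2- replicate 4 and not in SOX2+ replicate 4. The SOX2+/MKI67+ libraries listed 18.7% and 23.2% of these and SOX2+/MKI67- 4.46% and 2.44%, and with equal lists 30.7% and 24.8% against 18.01% in each, of 2088 regions. Both SOX2+/MKI67+ libraries shared 110 of the 680. Their median rank percentiles were 28.3 and 24.4 in the SOX2+/MKI67+ lists, and 25.6, 75.3, 30.8 and 58.5 in SOX2- replicates 1 to 4, of which replicate 1 listed 30 of the 110. The lists differ in length, so percentiles from different lists are given as a description. A region open in fewer of the sorted cells and one open to a lesser extent in each cell cannot be told apart here.

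The mirror class was mostly kept. Of 1814 regions in at least 3 SOX2+ and no SOX2- library, the SOX2+/MKI67+ libraries listed 70.5% and 91.8% and the SOX2+/MKI67- libraries 88.0% and 87.2%, and these overlapped. Cutting the lists to equal length gave 57.6% and 65.8% against 80.5% and 80.1% of 663 regions, with no overlap (exact permutation p = 0.333, the smallest possible). Both SOX2+/MKI67+ libraries listed 1225 of the 1814 and neither listed 96. Of 10747 regions in SOX2+ replicate 4 and not in SOX2- replicate 4, SOX2+/MKI67+ replicates 1 and 2 listed 31.9% and 59.1% and the SOX2+/MKI67- libraries 45.2% and 42.2%, and with equal lists 47.9% and 56.1% against 58.0% and 61.4% of 2096. By these shares the cycling libraries held fewer of the SOX2+ regions and more of the bulk regions than the non-cycling libraries at equal peak numbers.

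Bulk regions absent from the SOX2+ libraries but listed in both cycling libraries lay at genes of varied function. The 6 that ranked highest in cycling cells, none of them in an SOX2+/MKI67- library, lay at or near Neurod4, a neurogenic factor (chr10:130263127-130263687), Trmt44 (chr5:35552171-35552879), the kinase anchor gene Akap6 (chr12:52674991-52675499), Aldoart1, Cfap61 and 2810006K23Rik, at mean percentiles from 46.7 to 55.3. Regions at Reln and Sfrp1 were chosen after their values were seen. A region inside Reln, which encodes the guidance protein reelin secreted by granule cells (chr5:21949032-21949694), was in all 4 SOX2- libraries at 3.9, 63.1, 75.4 and 58.9. It was in both SOX2+/MKI67+ libraries at 10.2 and 2.7, and in no SOX2+ or SOX2+/MKI67- library. The region 28.2 kb from Sfrp1, a secreted Wnt antagonist (chr8:23477430-23478182), had the same membership, at 4.0 and 12.9 in SOX2+/MKI67+. These positions were in the weakest parts of the cycling lists, and neither region was in an SOX2+/MKI67+ list at equal peak numbers.

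Promoters at Atoh1, Neurod1 and Nhlh1 were open in most SOX2- libraries and in neither SOX2+/MKI67- library, and were chosen for description after their values were seen. Other listed granule and neuronal promoters did not follow them: those of Map2, Syt1, Sox11, Elavl4, Zic1, Nrcam and Cntn2 were open in at least 3 SOX2- and in both SOX2+/MKI67- libraries. Atoh1 had its gene-end region (chr6:64728659-64729276) in 4 of 4 SOX2- libraries at rank percentiles of 58.8, 74.4, 25.8 and 83.6 and in both SOX2+/MKI67+ libraries at 36.8 and 43.6. It was in 2 of 4 SOX2+ libraries and in neither SOX2+/MKI67- library. A second Atoh1 region 3.36 kb from the gene (chr6:64734220-64734987) was in all 4 SOX2- libraries at 72.9 to 85.8, in both SOX2+/MKI67+ at 67.2 and 52.1, and in neither SOX2+/MKI67-. Neurod1, a factor of granule neuron differentiation, had its gene end (chr2:79456477-79457075) in 3 of 4 SOX2- libraries, in both SOX2+/MKI67+ at 61.6 and 32.5, in 1 of 4 SOX2+ and in neither SOX2+/MKI67-. The gene end of Nhlh1, another such factor (chr1:172057454-172058024), was in 3 SOX2- libraries and in 1 of 2 SOX2+/MKI67+, at 4.9. After the cut to equal length, no SOX2+/MKI67+ list held any of these 3 gene ends, against 3, 3 and 1 SOX2- lists.

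Promoter windows from RefSeq (GRCm38.p6, the assembly of mm10) put these gene ends beside those of the stem-like genes. Of 21044 windows of 17273 genes, running from 250 bases before to 50 after a start, 210 were overlapped by a peak in both SOX2+/MKI67+ and no SOX2- library (0.998%). The reverse class, at least 3 SOX2- and no SOX2+/MKI67+, held 22 (0.105%). Of the 7448 windows open in at least 3 SOX2- libraries, 96.1% were open in both SOX2+/MKI67+ libraries. Equal peak numbers gave 104 and 189 windows in the exclusive classes. The sequences below are the 250 bases before the start of 3 promoters open in the bulk and also listed in cycling cells (Atoh1, Neurod1, Nhlh1), of Sox2, and of 3 listed in both SOX2+/MKI67+ and no SOX2- library (Fabp7, Dll1, Hes5). Capitals mark matches on either strand to CAGATG or CAGCTG, forms of the E-box CANNTG that bHLH factors such as ATOH1 bind, to ACAATG or ACAAAG, which SOX factors bind, or to the GLI motif GACCACCCA.
Atoh1 (chr6:64728875-64729124, + strand): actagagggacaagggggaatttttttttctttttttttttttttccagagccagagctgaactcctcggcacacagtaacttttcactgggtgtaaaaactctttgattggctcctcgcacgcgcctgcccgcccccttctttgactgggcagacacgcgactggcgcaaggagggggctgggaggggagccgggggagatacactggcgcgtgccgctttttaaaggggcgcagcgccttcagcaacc
Neurod1 (chr2:79456637-79456886, − strand): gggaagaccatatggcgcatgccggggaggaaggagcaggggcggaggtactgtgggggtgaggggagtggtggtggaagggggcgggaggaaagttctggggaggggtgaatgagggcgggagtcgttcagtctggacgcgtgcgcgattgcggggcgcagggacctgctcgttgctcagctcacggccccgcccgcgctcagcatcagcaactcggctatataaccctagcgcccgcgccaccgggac
Nhlh1 (chr1:172057597-172057846, − strand): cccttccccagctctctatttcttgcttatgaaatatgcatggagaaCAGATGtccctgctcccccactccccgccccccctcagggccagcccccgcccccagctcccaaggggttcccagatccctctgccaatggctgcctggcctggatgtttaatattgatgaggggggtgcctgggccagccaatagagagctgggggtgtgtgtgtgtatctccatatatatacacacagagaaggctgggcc
Sox2 (chr3:34649745-34649994, + strand): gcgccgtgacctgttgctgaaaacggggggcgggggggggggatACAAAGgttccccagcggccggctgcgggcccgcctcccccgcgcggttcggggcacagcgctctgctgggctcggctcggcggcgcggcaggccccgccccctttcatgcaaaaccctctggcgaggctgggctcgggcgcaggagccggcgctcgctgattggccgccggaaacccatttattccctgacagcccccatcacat
Fabp7 (chr10:57784673-57784922, + strand): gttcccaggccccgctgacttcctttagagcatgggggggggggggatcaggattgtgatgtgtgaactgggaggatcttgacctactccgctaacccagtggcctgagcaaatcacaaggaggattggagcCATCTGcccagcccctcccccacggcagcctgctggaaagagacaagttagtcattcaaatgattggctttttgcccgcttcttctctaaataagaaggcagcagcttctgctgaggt
Dll1 (chr17:15375824-15376073, − strand): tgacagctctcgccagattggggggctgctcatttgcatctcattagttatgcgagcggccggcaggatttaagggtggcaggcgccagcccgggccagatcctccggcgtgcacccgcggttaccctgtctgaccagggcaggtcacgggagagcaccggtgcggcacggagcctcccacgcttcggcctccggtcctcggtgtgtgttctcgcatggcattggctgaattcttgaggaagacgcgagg
Hes5 (chr4:154960673-154960922, + strand): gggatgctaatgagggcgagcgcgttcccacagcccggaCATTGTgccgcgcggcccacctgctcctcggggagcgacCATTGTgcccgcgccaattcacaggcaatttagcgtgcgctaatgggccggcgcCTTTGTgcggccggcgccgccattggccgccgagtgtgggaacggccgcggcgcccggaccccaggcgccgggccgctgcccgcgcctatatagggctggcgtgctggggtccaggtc

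Most of these motifs are short and common. Atoh1, Neurod1 and Dll1 held no match to the capitalised motifs. Nhlh1 and Fabp7 held 1 match to CAGATG, Sox2 1 to ACAAAG, and Hes5 2 to ACAATG and 1 to ACAAAG. Over all 21044 windows, CAGATG was in 12.3%, CAGCTG in 12.2%, ACAATG in 8.84%, ACAAAG in 14.98%, GACCACCCA in 0.162% and any CANNTG in 62.8%. The motifs were searched in the 250 bases before each start. In the 210 windows exclusive to cycling cells the shares were 12.9%, 15.2%, 6.67%, 16.7%, 0.476% and 61.0%. A match describes letters only and says nothing of binding.

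Some bulk regions were in neither SOX2+/MKI67+ library. Of the 486, 342 were in no SOX2+ library and 473 in neither SOX2+/MKI67- library, and 48.8% lay between genes. At Reln, a second region inside the gene (chr5:22093134-22093743) was in 4 of 4 SOX2- libraries, at 0.2, 68.2, 47.2 and 74.6, and in none of the other 8. Another Reln region (chr5:22280577-22280946), one inside the granule-lineage gene Barhl1 (chr2:28915528-28916116) and one 3.37 kb from Nhlh1 (chr1:172060739-172061183) were in 3 SOX2- libraries and no other. A region inside Cdk6, a kinase of the G1 phase (chr5:3520717-3521157), was in 4 SOX2- libraries and 1 SOX2+ library. Opa1, which fuses mitochondrial inner membranes, held 3 such regions, and Ank3, Cacng2, Ddx31, Fto, Gm1043, Gm14410 and Ldlrad4 held 2 each.

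Several of the best-ranked bulk regions did not follow the SOX2 groups. Regions inside Aida (chr1:183299047-183299655, mean rank percentile 99.7) and Tmem267 (chr13:119601795-119602287, 94.6, and chr13:119597650-119598079, 82.1) were in replicates 1 to 3 of both SOX2- and SOX2+ and in none of the other 6 libraries, so they followed the sets of libraries described above. A region 53.3 kb from Fgfr2 (chr7:130319813-130320395, 72.6) was in 3 SOX2- and 3 SOX2+ libraries, replicate 4 of both included, and in none of the 4 MKI67-sort libraries. Over the genome 8 regions were in at least 3 SOX2- and at least 3 SOX2+ libraries and in none of the MKI67 sort. Of the 6 named by rank, only the region inside Nrcam, a neuronal adhesion gene (chr12:44515013-44515474, 83.1), was in no SOX2+ library. The last, 16.9 kb from Tmem174 (chr13:98654005-98654621, 76.1), was in 1.

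Loci with several consensus regions were held to different extents. Both SOX2+/MKI67+ libraries listed 8 of 9 at Nfia, a factor of gliogenesis, 4 of 4 at Gap43, a growth-cone protein, 3 of 3 at Meis1, Map2, Btg2, Ccne1 and Fosb, and 3 of 4 at Gli2, Ier5 and Ywhaz. They listed 2 of 3 at Atoh1, Btg1, Ccnd3 and Nrcam, 2 of 4 at Nfib and 1 of 4 at Reln, the lowest share among these 16 loci. By list, 18 of 24 consensus regions at granule-progenitor genes (75%) and 19 of 25 at neuronal-differentiation genes (76.0%) were in both, against 19 of 22 at stem genes (86.4%) and 89.4% over all genes. The astrocyte list had 3 of 5 (60.0%), the oligodendrocyte list 4 of 6 (66.7%) and the BMP list 10 of 14 (71.4%). Low shares on full lists were therefore not limited to lineage genes of the bulk. At equal peak numbers the granule, neuronal and stem lists had 2 of 10, 4 of 9 and 4 of 5, against 78.8% over all genes. The astrocyte, oligodendrocyte and BMP lists had 1 of 2, 2 of 3 and 7 of 8 there.

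Peaks at whole gene lists, scaled per 10000 peaks, were compared with 2 libraries against 4. Oligodendrocyte-lineage genes had 12.8 and 18.2 in SOX2+/MKI67+ against 4.28, 6.11, 5.53 and 7.84 in SOX2-, without overlap. The SOX2+ libraries had 12.2 to 18.1 and SOX2+/MKI67- 15.6 and 20.4. Astrocyte and Bergmann glia genes had 14.9 and 16.6 against 4.28 to 10.1, also without overlap. For both lists the exact permutation p was 0.0667, the smallest that 15 assignments can give, and 0.45 after Benjamini-Hochberg adjustment over 18 lists. Granule-progenitor genes had 20.8 and 21.5 against 19.97 to 27.7 on full lists, which overlapped. Their values at equal peak numbers were 11.4 and 5.71 against 17.1 to 24.3, without overlap (exact permutation p = 0.0667, adjusted 0.40). SOX2+/MKI67- had 11.4 and 5.71 there too and SOX2+ 5.71 to 15.7, so the list did not separate cycling from non-cycling cells at equal peak numbers. On full lists SOX2+/MKI67- had 13.5 and 15.9 and SOX2+ 12.8 to 23.4. Hedgehog-pathway genes at equal peak numbers had 7.13 and 5.71 against 8.56 to 12.8 (exact permutation p = 0.0667, adjusted 0.40). For these, SOX2+/MKI67- had 9.99 and 8.56 and SOX2+ 7.13 to 11.4. Against SOX2- replicate 4 alone, the mean SOX2+/MKI67+ value differed by 7.68 per 10000 for oligodendrocyte, 5.63 for astrocyte, 5.45 for stem, −6.53 for granule and −4.09 for neuronal genes on full lists. Stem and progenitor genes had 25.6 and 29.6 against 17.1 to 27.1, and the astrocyte difference went from 8.50 to 1.43 per 10000 at equal peak numbers, where the groups overlapped. On full lists Notch, BMP and microglia genes were also higher without overlap, and cell cycle genes lower (adjusted exact p 0.45 each). At equal peak numbers stem genes were higher and neuronal genes lower without overlap (adjusted exact p 0.60 each).

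**Figure D4:**
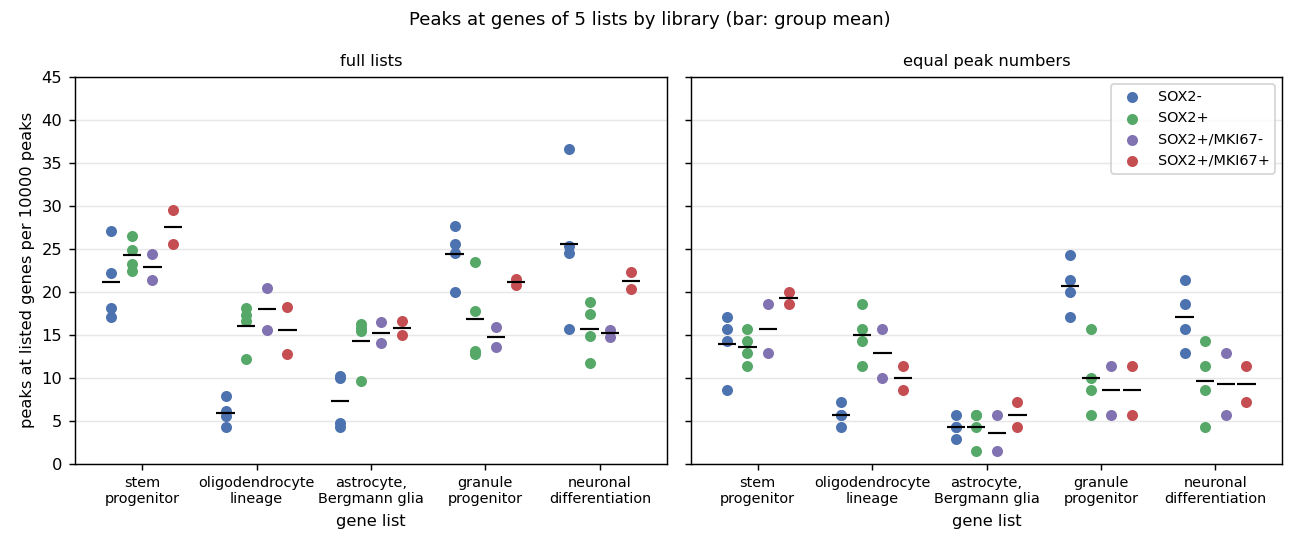
Peaks at genes of 5 lists per 10000 peaks of a library, for full lists (left) and equal peak numbers (right), with 1 point per library, coloured by group, and a bar at the group mean. Oligodendrocyte-lineage genes stand higher in SOX2+/MKI67+ than in SOX2- in both panels, and granule-progenitor genes are lower without overlap only in the right panel.

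Gene by gene, 12422 of 21627 protein-coding genes could be tested, and 42 were higher in SOX2+/MKI67+ (0.338%) and 3 lower (0.0242%) at an adjusted p under 0.05. Of the 42, 35 had no peak in any SOX2- library, 40 also had a positive difference from SOX2- in the SOX2+ libraries, and 40 in SOX2+/MKI67-. Those comparisons share the SOX2- libraries, and a gene with no peak in any of them can hardly come out lower in another group. These signs are therefore largely fixed by the choice of genes and are no separate support. As higher past the threshold, 1.45% and 0.805% of all genes passed in those comparisons. For 24 of the 45 the number of peaks was the same in every library of a group, which makes the estimated error small, and log2 differences of the higher genes ran from 0.95 to 2.04. Zfp648, a zinc finger gene, had 7 and 6 peaks in SOX2+/MKI67+ against 0, 1, 0 and 1 (log2 difference 2.04, SE 0.24, adjusted p 0.0238). It was also past the threshold at equal peak numbers, alone among the 45, where 113 genes were higher (1.65% of 6851) and 56 lower (0.817%).

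The other higher genes were mostly open in all SOX2+ sorts on full lists. With equal lists Rnf182, Nkx2-2, Hepacam and Nr4a1 had a difference of 0, and Fa2h one of 0.50 (adjusted p 0.771). Rnf182, a ubiquitin ligase gene, had 3 and 3 peaks against 0 in each SOX2- library (log2 difference 1.89), and Nkx2-2 had 2 and 3 against 0 (1.80). Fabp7 had 1 and 1 against 0 in each (1.00, adjusted p 0.0432), and it is the only stem gene of 19 tested that passed. The 12 with the smallest p also held 4930432M17Rik, Cyp2j9, Susd5, Fam3c, Myrip and S1pr2, and 3 genes known from glia or myelin, Fa2h, Hepacam and Neu4. Fa2h, which makes the hydroxylated lipids of myelin, had 3 and 4 against 0, 1, 0 and 0 (1.78), and the glial adhesion gene Hepacam 2 and 3 against 0 in each (1.72). Nr4a1, an immediate early gene, had 5 and 5 against 1, 2, 1 and 2 (1.11), the only one of 15 tested that passed, and Nr4a3 had 3 and 3 against 1, 3, 1 and 1.

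Lower peak numbers passed at 3 genes, and none of the 3 passed at equal peak numbers. Cacng2, a regulator of glutamate receptors, had 1 and 1 peaks against 2, 5, 3 and 5 (log2 difference −1.38), but 0.35 at equal peak numbers. Hs3st4, a heparan sulfate enzyme gene, had 0 and 0 against 1, 4, 1 and 2 (−1.69). Fam53b had 1 and 2 against 0, 11, 2 and 7 (−1.64), so its groups overlapped, and without the term for list length the difference was −0.75 and did not pass. Next by p, with values only, came Tmem175, 9230019H11Rik, Pou5f2, Scn9a and Kcna10, at adjusted p from 0.0610 to 0.0681.

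Few members of the fixed lists passed. The 12 tested oligodendrocyte-lineage genes had a median log2 difference of 0.88, with 11 above 0, 1 higher past the threshold and 4 whose libraries did not overlap, against a median of 0.01 over all genes, of which 6.25% did not overlap in the higher and 0.145% in the lower direction. Olig2 had 4 and 3 peaks against 0, 2, 1 and 1 (0.99, adjusted p 0.165). The 14 astrocyte genes had a median of 0.46 and 4 without overlap, among them Ntrk2 with 5 and 7 against 0, 1, 0 and 0 (2.17, adjusted p 0.0635) and Aldh1l1 with 2 and 3 against 0 in each (1.69, adjusted p 0.133). The 19 stem genes had a median of 0.21, with 5 higher without overlap. The 18 Notch genes had a median of 0.06, with 3 higher without overlap, and among them Notch1 had 3 and 5 against 0, 1, 0 and 0 (1.74, adjusted p 0.159). Sox21 had 1 and 2 peaks against 0 in each, and Hes5 2 and 3 against 0, 2, 0 and 1.

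Several lists had medians below 0. The 20 granule-progenitor genes had a median of −0.16, with 0 passing in either direction by limma and 0 without overlap. At an unadjusted limma p under 0.05, in either direction, were 5 of the 20, against 1442 of 12422 over all genes. The 19 stem, 12 oligodendrocyte-lineage, 14 astrocyte and 18 Notch genes also had 5 each. Nhlh1 had 0 and 1 peaks against 1, 3, 1 and 2 (−1.10, adjusted p 0.196), and Barhl1 0 and 0 against 1, 3, 0 and 2 (−1.36, adjusted p 0.256). The 17 neuronal-differentiation genes had a median of −0.27, and Reln had 2 and 3 peaks against 3, 9, 4 and 8 (−1.33, adjusted p 0.188). With equal lists, Reln had 0 and 0 against 3, 1, 3 and 2 and passed (−1.65, adjusted p 0.0057), as did Sox2 with 2 and 2 against 0 in each. Fibroblast genes had a median of −0.34, endothelial and mural genes −0.16 and cell cycle inhibitors −0.14, so medians of this size were not limited to the lineage of the bulk. The 16 hedgehog genes had a median of −0.10, where the inhibitor gene Hhip had 0 and 1 against 0, 2, 0 and 4. The cilium gene Ift88 had 3 and 3 against 1, 1, 1 and 2 (0.77, adjusted p 0.211). Cell cycle genes had a median of 0.04 over 18, and Cdk6 1 and 2 against 1, 6, 3 and 6 (−1.40, adjusted p 0.073).

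Other pathways had few members apart. In the Wnt list the co-receptor gene Lrp6 had 2 and 2 peaks against 1 in each SOX2- library (0.58, adjusted p 0.119), and the ligand gene Wnt7a 2 and 2 against 0 in each (1.40, adjusted p 0.203). Of the BMP genes, the target Id3 had 2 and 4 against 0, 1, 0 and 2, and the ligand gene Bmp7 2 and 5 against 0, 1, 0 and 1. Bmp7 did not overlap, and neither passed (adjusted p 0.278 and 0.336). The neuronal splicing gene Rbfox3 had 1 and 2 against 0, 10, 0 and 5, the mitotic kinase gene Aurkb 1 and 1 against 0, 2, 1 and 2, and the growth inhibitors Tob1 and Cdkn2b 1 and 1 each, against 1 to 3. Among markers of other cells, the leukocyte gene Ptprc had 2 and 2 against 0, 0, 0 and 2, the myeloid factor gene Irf8 1 and 2 against 0, 1, 0 and 0, and the lymphocyte kinase gene Lck 0 and 1 against 0, 1, 0 and 0. Kdr of endothelium had 0 and 0 against 0, 2, 0 and 1, and Cspg4, of pericytes and oligodendrocyte precursors, 1 and 8 against 0, 2, 0 and 1. Foxj1 of ciliated cells had 2 and 2 against 0, 1, 0 and 1, and Mcidas, which drives multiciliated cells, 0 and 0 against 0, 0, 0 and 1. The fibroblast gene Dcn had 0 and 0 against 0, 1, 0 and 1, and Foxd1 0 and 0 against 0, 1, 1 and 0. Of the housekeeping genes, Eef1a1 had 3 and 3 against 1 in each and Ppia 1 and 1 against 1, 2, 1 and 2, so single loci could move in either direction there too.

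**Figure D5:**
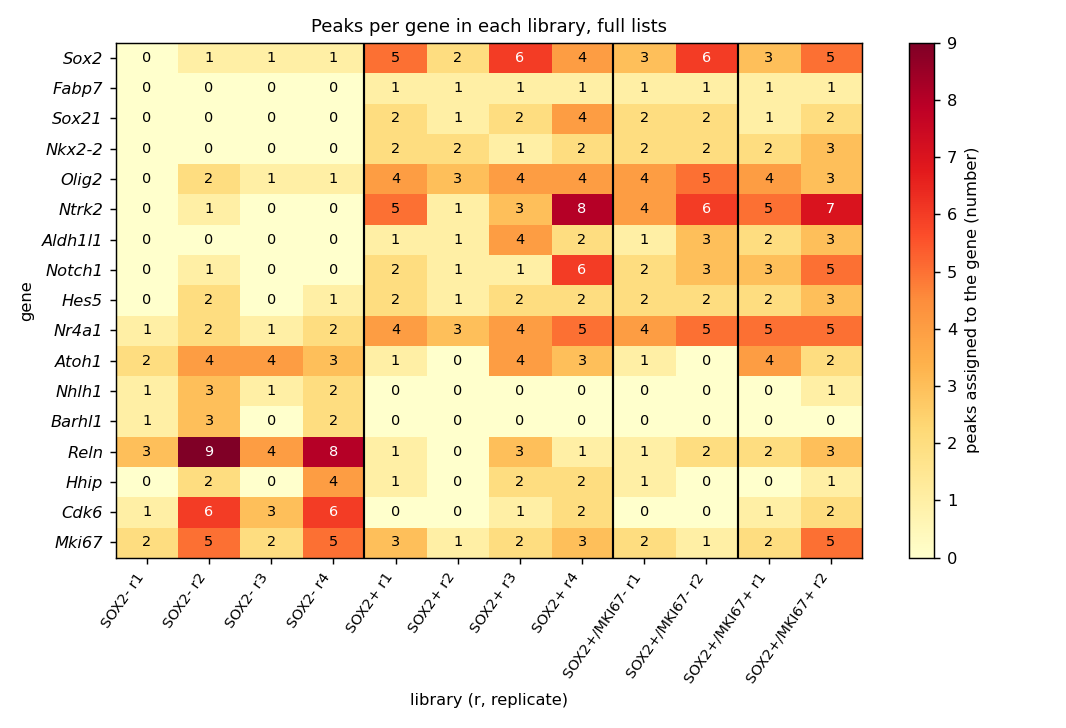
Number of peaks assigned to 17 listed genes in each of the 12 libraries, full lists, with the groups separated by black lines and the colour and the printed number giving the count. Sox2, Nkx2-2, Olig2, Ntrk2 and Notch1 are higher in both SOX2+/MKI67+ libraries than in any SOX2- library, while Atoh1 and Mki67 overlap between the groups.

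The calls for single genes were often lost when a library was left out, while their signs were kept in each such fit that tested them. Without either SOX2+/MKI67+ library, or without SOX2- replicate 3, 0 genes passed by limma (1060, 1070 and 1450 at an unadjusted p under 0.05), and 2 passed without SOX2- replicate 2 or 4. Without SOX2- replicate 1 there were 82, with 44 of the 45 among them. Each fit without a SOX2+/MKI67+ library leaves 1 in that arm, which is assumed to vary like the other groups. With a term for replicates 1 to 3 of SOX2- and SOX2+ against the other libraries, added after the data were seen, 79 genes passed (47 higher, 32 lower), 36 of the 45 among them, and all 45 kept their sign. Hepacam, Myrip, Nr4a1, Cacng2 and Hs3st4 did not pass there, and Tmem175, Pou5f2 and 9230019H11Rik did. Sox2 stood at 1.45 (adjusted p 0.288). Against the non-cycling fraction, SOX2+/MKI67+ had 0 genes past the threshold in either direction by limma. At an unadjusted p under 0.05 were 691 of 12422, about the share that this threshold alone lets through.

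Overlap of whole lists was higher on average with other SOX2+ libraries than with SOX2-, with ranges that met. The Jaccard index, shared bases over all bases covered, was 0.546 between the 2 SOX2+/MKI67+ lists, 0.539 on average with SOX2+/MKI67-, 0.496 with SOX2+ and 0.394 with SOX2-, and 0.372 among SOX2- lists. Cut to equal length, the lists gave 0.600, 0.581, 0.558, 0.488 and 0.493. Single pairs ran from 0.314 to 0.616 with SOX2+ and from 0.222 to 0.478 with SOX2- on full lists, and from 0.493 to 0.641 and from 0.400 to 0.534 at equal peak numbers. The mean within the 2 groups exceeded the mean between them by 0.00231 on full lists and 0.0200 at equal peak numbers (exact permutation tests over 15 assignments, one-sided p = 0.467 and 0.333).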

How the data were processed

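The deposited data are 1 peak list per library. Sorted cells (35000 to 50000 per sample) were tagged with transposase and read as 50 bp single ends, per the labels' protocols. Bowtie2, MACS2 and the build mm10 are named in the submitters' processing notes, without versions or settings. Each list gives, per peak, the authors' score, the fold ratio over background, −log10 p and −log10 q, as deposited. No read counts were used here, so depth is unknown and no intervals from counting are given. Peaks were merged over all 12 libraries where they overlapped by at least 1 bp. Peaks were assigned to the nearest protein-coding gene on chromosomes 1 to 19 and X within 100 kb (RefSeq, GRCm38.p6). Genes needed peaks in 2 or more libraries, and their number of peaks was tested as log2(peaks + 1) with limma 3.58.1 in R 4.3.3, over 4 groups and the log10 of list length, with Benjamini-Hochberg adjustment. Genes with the same value in all 12 libraries (1760) were left out after the data were seen, since they distorted the estimate of spread. Scripts were tested on simulated data. The libraries, lists and regions were chosen with earlier results of these data known. Genes were named by a rule: Sox2, Atoh1 and Mki67, the 12 called genes with the smallest p per direction (8, as values, where fewer than 5 passed), up to 4 passing members per list or else the 2 with the smallest p, the 8 genes with most regions and the 6 best-ranked regions of each exclusive class, and listed loci with at least 3 consensus regions. Printed promoters, regions at listed genes and regions shared by SOX2- and SOX2+/MKI67+ only were chosen after their values were seen. The division of the libraries into 2 sets, the fit with a term for it and the values against SOX2- replicate 4 alone were also added after the data were seen.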

Additional observations from a re-analysis of the deposited data

Results flagged for a closer look

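Single libraries of a group of 4 that lay far from the other 3 were looked for in 134 sets of values, of which chance alone flags about 1 in 20, and most flags below come from small whole numbers with ties. SOX2- replicate 1, the shortest list, had 0 peaks at Sox2 against 1 in each other SOX2- library. SOX2- replicate 2, the longest list, had 1 peak at Ntrk2, Notch1 and Fa2h, where the other 3 had 0. It also had lymphocyte-gene peaks at 0.382 per 10000 against 0, and Notch-gene peaks at 12.8 per 10000 against 8.56 at equal peak numbers. SOX2- replicate 1 had ependymal-gene peaks at 4.28 per 10000 against 2.85 at equal peak numbers. Among the SOX2+ libraries, astrocyte and Bergmann glia genes stood at 9.60 per 10000 in replicate 2, the shortest of the 4 lists, against 15.5 to 16.2. At equal peak numbers, hedgehog genes stood at 11.4 in SOX2+ replicate 4 against 7.13, housekeeping genes at 17.1 in replicate 2 against 14.3, and fibroblast genes at 0 in replicate 2 against 1.43.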

How the results depend on the processing

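Counts of regions depended on list length and on single libraries, and the cause of each change beyond the construction of an alternative was not tested. Regions in both SOX2+/MKI67+ and no SOX2- library numbered 2210, with 419 at equal peak numbers, 1243 at equal numbers without the shortest list, 3875 when 1 SOX2- library was allowed, 1225 when at least 3 SOX2+ libraries were also required, and 2214 to 6592 when 1 library was left out (6592 without SOX2+/MKI67+ replicate 1). Regions in at least 3 SOX2- and no SOX2+/MKI67+ library numbered 486, with 36 when all 4 SOX2- libraries were required and 38 to 1100 with 1 library left out. Leaving out 1 SOX2- library requires all of the remaining 3, which brings in the shortest list (38, 72 and 49 without replicates 2, 3 and 4). Leaving out 1 SOX2+/MKI67+ library loosens both exclusive classes by construction, and 1100 arose without SOX2+/MKI67+ replicate 2. Regions in all 6 libraries numbered 6214, with 3772 at equal peak numbers and 6217 to 9500 with 1 library left out (9500 without SOX2- replicate 1). The share of the SOX2- consensus held by both SOX2+/MKI67+ libraries was 88.1%, with 77.5% at equal peak numbers, 83.6% at equal numbers without the shortest list, 97.8% for a consensus of 4, 67.4% for a consensus of at least 2, and 88.8% to 97.7% with 1 library left out. Against SOX2- replicate 4 alone, an alternative chosen after seeing the data, the first 2 classes numbered 3454 and 5338, the share was 60.1% and the gene-end share differed by 2.39 points. An overlap of at least 100 bp, windows of 100 bp around summits and leaving out the weakest peaks of each list by fold changed none of these values by more than 1.5 times, or the share by more than its spread.

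The 45 genes past the threshold became 169 at equal peak numbers (36 of the 45 were tested and 1 stayed a call), 303 at equal numbers without the shortest list, 248 with only the 6 libraries, 13 with no filter on low values, and 0 to 82 with 1 library left out. Keeping genes with the same value in all libraries, an alternative chosen after seeing the data, gave 76, and a term for replicates 1 to 3 of SOX2- and SOX2+ against the other libraries, also chosen then, 79. With a replicate block 173 genes passed. Labels share replicate numbers 1 and 2 between the groups but do not say that they pair libraries, and deviations of same-numbered libraries correlated at 0.07 and 0.14. Signs turned over in 5 of the values followed for named genes. Fam53b was at 0.22 with gene-end peaks only, and Cacng2 at 0.35 and 0.14 at equal peak numbers with and without the shortest list. With 1 library left out Atoh1 ran from −1.003 to 0.027 (without SOX2+/MKI67+ replicate 2) and Mki67 from −0.71 to 0.039 (without SOX2+/MKI67+ replicate 1). The gene-end share differed by 1.34 and 2.23 points at equal peak numbers, with and without the shortest list, and the Jaccard difference ran from −0.0382 to 0.0361 with 1 library left out. Differences per 10000 peaks for the stem, oligodendrocyte, astrocyte, granule and neuronal lists kept their direction in all alternatives run.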
